A study of Mus musculus with 9 samples.

Results

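The nuclear genes of the respiratory chain were followed in erythroblasts of the mouse spleen. Members were taken by symbol: the Nduf, Sdh, Uqcr, Cyc1, Cox4 to Cox8 and Atp5 genes, without assembly factors and pseudogenes. This gave 83 of the 20368 genes in the deposited table, of which 35 belong to complex I, 4 to complex II, 9 to complex III, 20 to complex IV and 15 to complex V, the ATP synthase. Ndufa4 and Ndufa4l2 were placed with complex IV, of which NDUFA4 is regarded as a subunit. RNA had been sequenced from spleen cells sorted for CD71, the transferrin receptor, and Ter119, a surface antigen of red cell precursors. All mice were C57BL/6 and 4 weeks old, and 3 libraries each came from wildtype, Dhh heterozygous (Dhh+/-) and Dhh knockout (Dhh-/-) animals. Dhh encodes Desert hedgehog, a secreted ligand of the Hedgehog pathway. No label says that each library came from a separate mouse, so the tests measure the spread between these libraries, which may be partly technical.

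The respiratory chain sits in the inner mitochondrial membrane. Complexes I and II pass electrons from NADH and succinate to coenzyme Q, complex III passes them to cytochrome c, and complex IV, cytochrome c oxidase, reduces oxygen. Complex V makes ATP from the proton gradient that complexes I, III and IV build. Most subunits are encoded in the nucleus, while complexes I, III, IV and V also hold subunits encoded in mitochondrial DNA. Maturing erythroblasts use their mitochondria for heme synthesis and remove them before the red cell is complete. Mitochondrially encoded subunits were not analysed here.

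Library quality bears on all results. Per library, 7.05 to 14.23 M reads were recovered from the deposited values, and 4 libraries held fewer than 10 M: wildtype 1, wildtype 2, heterozygous 2 and knockout 2. Erythroid markers were abundant in all 9 libraries, with 351 to 596 FPKM of Tfrc, which encodes CD71, 171 to 254 FPKM of Gata1 and 2884 to 7458 FPKM of Alas2. Dhh itself was at 0.027 FPKM in heterozygous 1 and listed as 0 elsewhere (8 libraries), so its level could not check the genotype labels. Wildtype 3 stood apart from the other 8 libraries. It had the lowest value of all 7 B cell, all 8 T and NK cell and all 8 macrophage and monocyte markers, with sums of 51.7, 9.18 and 87.8 FPKM against 219 to 849, 40.5 to 90.6 and 324 to 1153 FPKM elsewhere. By genotype, the B cell sum ranged over 51.7 to 849 FPKM in wildtype, 414 to 489 in heterozygous and 219 to 566 in knockout libraries, and the macrophage sum over 87.8 to 1007, 566 to 645 and 324 to 1153 FPKM. Of the defining lymphoid markers, Pax5, Cd3g and Cd3d were at 0 in at least 1 library. Neutrophil markers summed to 313 FPKM in wildtype 3, within the 251 to 1582 FPKM of the others. Fitted differences from wildtype that moved by more than 1.5-fold without wildtype 3 are therefore also given without it.

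Promoter sequence gave a first view of what the members share. RefSeq promoter windows on GRCm38.p6, from 250 bases before to 50 after a gene's start, matched 66 of the 83 members by symbol. They were searched on both strands for exact matches to 3 motifs of factors known as regulators of respiratory genes. The NRF1 motif was found in 17 of the 66 (25.8%), against 12.9% of 7394 genes that passed the expression filter and 5.19% of 27025 genes in all. The ETS motif CCGGAAG, which the GABP factor also binds, was found in 16 members (24.2%), against 22.6% and 9.93%. The YY1 motif was found in 5 (7.58%), against 2.92% and 0.995%. At least 1 of the motifs was present in 32 of the 66 (48.5%), against 34.3% of the filtered genes. A match is a description of the letters and not of binding.

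Bases that lie before both the RefSeq and the GENCODE start follow for 5 members. Cox6a1, Sdha and Sdhd were the members with more than 1 NRF1 or ETS match in that stretch. Uqcrh and Atp5l are among the 12 members whose heterozygous and wildtype libraries did not overlap. They were picked with these values known, and a link between a match and a difference was not tested. Capitals mark the matches, with the ETS motif as its reverse complement CTTCCGG, and all 5 genes lie on the minus strand and are written 5′ to 3′ as the gene reads. The positions are chr5:115348982-115349132 for Cox6a1, chr13:74350281-74350350 for Sdha, chr9:50603850-50603940 for Sdhd, chr4:116075072-116075092 for Uqcrh and chr9:44920743-44920966 for Atp5l.
Cox6a1: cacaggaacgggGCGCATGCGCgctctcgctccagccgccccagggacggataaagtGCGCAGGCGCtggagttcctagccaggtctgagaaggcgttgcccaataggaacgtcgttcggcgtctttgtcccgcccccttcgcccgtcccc
Sdha: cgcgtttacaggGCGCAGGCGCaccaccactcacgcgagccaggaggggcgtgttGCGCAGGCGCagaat
Sdhd: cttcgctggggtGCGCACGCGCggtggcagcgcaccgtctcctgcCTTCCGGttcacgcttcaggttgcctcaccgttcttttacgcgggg
Uqcrh: gagtatgccgcaCTTCCGGcc
Atp5l: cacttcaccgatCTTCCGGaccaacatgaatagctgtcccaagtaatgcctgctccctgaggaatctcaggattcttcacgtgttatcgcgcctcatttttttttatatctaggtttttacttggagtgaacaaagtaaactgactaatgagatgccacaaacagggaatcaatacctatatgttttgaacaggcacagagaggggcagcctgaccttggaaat
The NRF1 matches of Cox6a1 began 162 and 117 bases before its RefSeq start, and those of Sdha 98 and 55 bases before. Sdhd held an NRF1 match 79 bases and an ETS match 46 bases before its start. Sdha and Sdhd encode the flavoprotein and a membrane anchor of the same complex.

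The members were abundant transcripts. FPKM, reads per length of gene and depth of library, allow levels to be compared between genes, since gene length is divided out. A gene was tested when it reached 1 FPKM in at least 3 libraries, which 9543 genes and 77 members did, and the median of the members' mean levels was 76.3 FPKM against 9.40 FPKM for all 9543. By complex, the median was 48.4 FPKM in complex I, 46.7 in complex II, 89.3 in complex III, 138 in complex IV and 188 in complex V. Between libraries the members spread about as much as other genes, with a median SD of 0.21 on the log2(FPKM + 1) scale against 0.22.

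**Figure D1:**
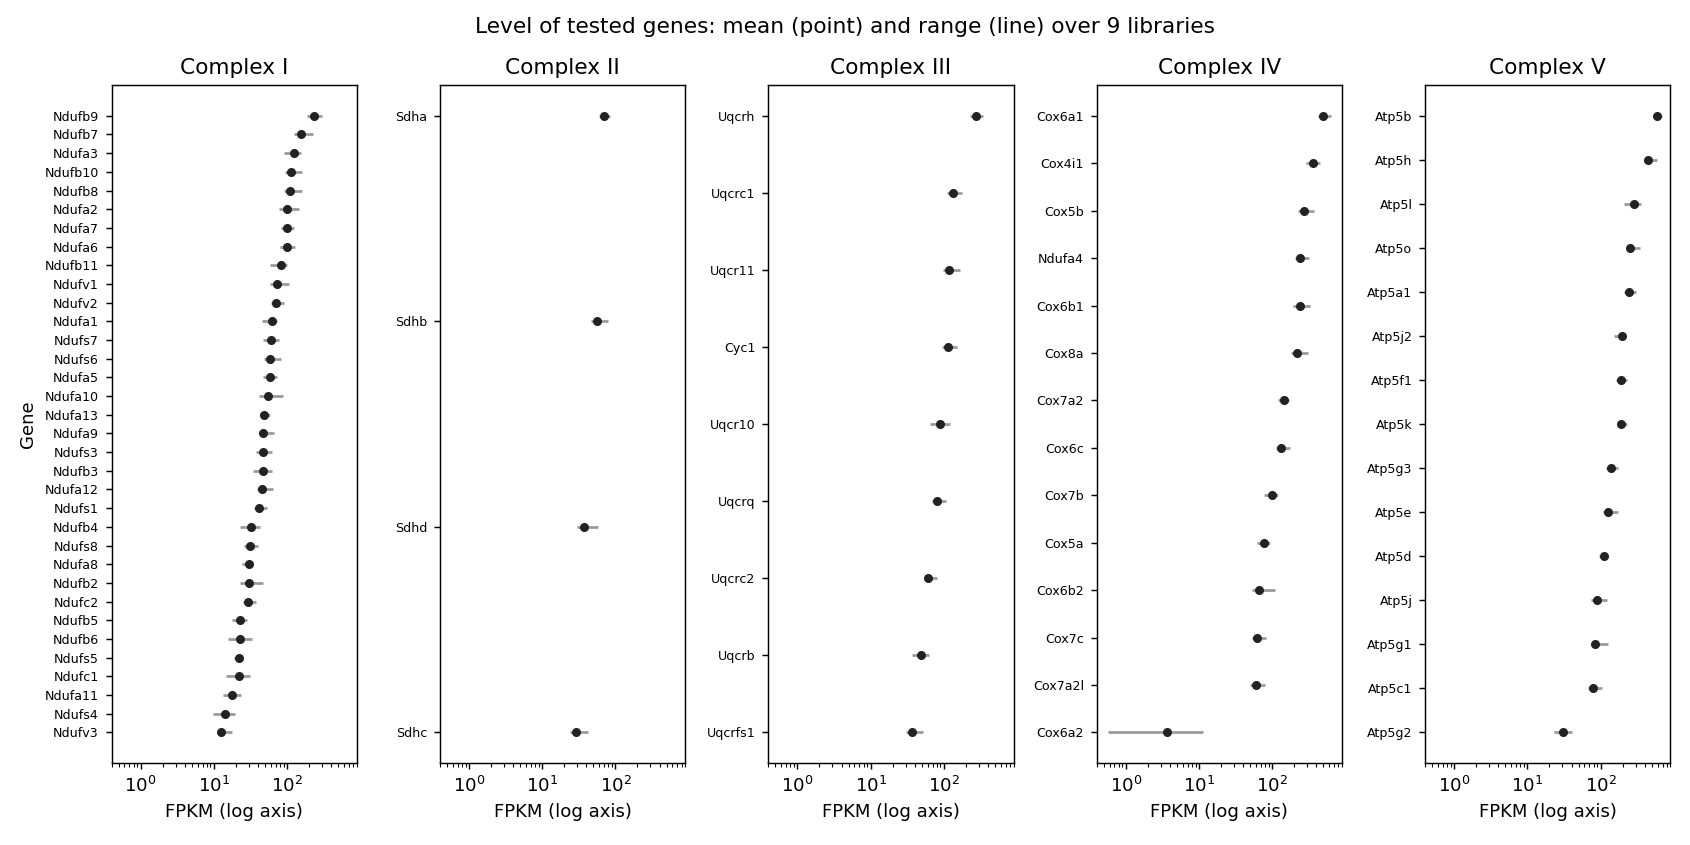
Mean FPKM over the 9 libraries (point) and the range from lowest to highest library (line) on a log axis, for 76 of the 77 tested members by complex. Complex V reaches from 30.7 FPKM for Atp5g2 to 593 FPKM for Atp5b, and Cox6a2 stands alone at 3.67 FPKM with a wide range.

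Complex I spanned 12.7 to 231 FPKM. The highest mean belonged to Ndufb9, an accessory subunit of the membrane arm, at 220.2, 239 and 297 FPKM in the wildtype, 189.7, 185 and 226 in the heterozygous and 239, 202 and 283 in the knockout libraries. It was above Ndufb7, another membrane arm subunit with a mean of 157 FPKM, in all 9 libraries. Ndufa3 (123 FPKM) and Ndufb10 (114 FPKM) followed, and Ndufa3 was above Ndufb10 in only 5 of the 9, so these neighbours in the order were not separated. Core subunits that bind the flavin or iron-sulfur clusters, and their partner Ndufs3, lay below these leading genes but spread over the order. Ndufv1 (73.4 FPKM), Ndufv2 (70.9) and Ndufs7 (61.1) had means above the complex I median of 48.4 FPKM. Ndufs3 (46.6 FPKM), Ndufs1 (41.2) and Ndufs8 (31.6) lay below it, as did many accessory subunits. At the bottom were Ndufs4, an accessory subunit of the NADH-oxidising arm, with a mean of 14.4 FPKM, and Ndufv3 at 12.7 FPKM. Ndufb9 overlaps exons of Gm49356 over 19.5% of its bases and Ndufb6 those of Smim27 over 39.0%, and no source used here says how such reads were assigned.

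In complex II, succinate dehydrogenase, the 4 genes kept one order in all 9 libraries. The flavoprotein gene Sdha (chr13:74322254-74350280) had 59.5, 70.03 and 83.2 FPKM in the wildtype, 66.2, 75.5 and 68.7 in the heterozygous and 66.3, 70.5 and 61.8 in the knockout libraries. The iron-sulfur subunit Sdhb ranged from 45.96 to 78.1 FPKM, and the membrane anchors Sdhd from 29.98 to 58.5 FPKM and Sdhc from 24.2 to 42.7 FPKM. Each was above the next in 9 of 9 libraries. All 4 genes peaked in wildtype 3.

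Uqcrh, which encodes the hinge protein beside cytochrome c1, was the most abundant gene of complex III with a mean of 278 FPKM. Uqcrc1, a core subunit facing the matrix, followed at 132 FPKM, the small accessory subunit gene Uqcr11 at 119 FPKM and Cyc1, cytochrome c1 itself, at 114 FPKM. The Rieske iron-sulfur protein gene Uqcrfs1 was lowest at 36.6 FPKM, below Uqcrb in all 9 libraries. In every library, then, more RNA came from the hinge protein than from either nuclear redox subunit, Cyc1 or Uqcrfs1.

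The nuclear subunits of complex IV were led by Cox6a1 (chr5:115345642-115348981), which had 492, 524 and 639.9 FPKM in the wildtype, 420.1, 493 and 434 in the heterozygous and 474, 523 and 494 in the knockout libraries. Cox4i1 averaged 361 FPKM, Cox5b 269, Ndufa4 240 and Cox6b1 239 FPKM. Each of the first 3 was above the next in all 9 libraries, while Ndufa4 exceeded Cox6b1 in 5 of 9. In complex V, the catalytic beta subunit gene Atp5b (chr10:128083273-128090391) was the most abundant of all members, at 590.1, 594 and 671 FPKM in the wildtype, 544, 678 and 525 in the heterozygous and 564, 589 and 579 in the knockout libraries. Atp5h, subunit d of the peripheral stalk, averaged 446 FPKM, Atp5l, the membrane subunit g, 283 FPKM, Atp5o, the oligomycin sensitivity protein, 251 FPKM, and the alpha subunit gene Atp5a1 244 FPKM. Reads of 11 members may be shared with near-identical copies elsewhere in the genome, among them Atp5l with 9 copies and Atp5h and Uqcrb with 3 each, so the levels of these are uncertain.

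The members included isoforms made from separate genes, and these were far apart in level. Cytochrome c oxidase has alternative subunits typical of heart and skeletal muscle (Cox6a2, Cox7a1 and Cox8b), of lung and low oxygen (Cox4i2) and of testis (Cox6b2, Cox7b2 and Cox8c). The 6 members below the filter were among these isoforms or, in 1 case, a relative of Ndufa4. Cox8c and Cox7b2 were listed at 0 in all 9 libraries, where a count of 0 allows up to 3 reads. Cox8b was above 0 only in wildtype 3 (0.21 FPKM, 1 read) and Ndufa4l2, a hypoxia-induced relative of Ndufa4, only in heterozygous 3 (0.20 FPKM, 1 read). Cox4i2 reached at most 1.02 FPKM, or 7 reads, and Cox7a1 at most 1.16 FPKM, or 4 reads, both in knockout 2.

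Cox6b2 was the exception among the tissue isoforms. This gene, best known from testis, had 52.6, 56.8 and 109 FPKM in the wildtype, 57.9, 61.97 and 64.5 in the heterozygous and 67.01, 56.1 and 59.6 in the knockout libraries, from 273 to 884 reads per library. Wildtype 3 was the highest library and the other 8 lay within 52.6 to 67.0 FPKM. Its share of the summed Cox6b1 and Cox6b2 FPKM averaged 21.3% ± 3.41 for wildtype, 22.6% ± 1.71 for heterozygous and 19.9% ± 2.08 for knockout (SD, n = 3 each), and it ranged from 18.1% to 25.3% over the 9 libraries. The genotypes overlapped in this share.

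Cox6a2, the muscle isoform of Cox6a1, was low and the most variable member. It had 5.07, 3.87 and 0.567 FPKM in the wildtype, 5.76, 2.70 and 1.49 in the heterozygous and 1.67, 11.2 and 0.70 in the knockout libraries, which is 0.089% to 2.10% of the summed Cox6a FPKM and rests on 5 to 70 reads. Wildtype 3 and knockout 3 were lowest and knockout 2 was highest. Knockout 2 also had the highest sum of macrophage and monocyte markers (1153 FPKM) and wildtype 3 the lowest (87.8 FPKM), and their part in the Cox6a2 values was not tested. On the other strand, exons of Itgad, a macrophage integrin gene, overlap 10.3% of the Cox6a2 bases. Itgad had 60.5, 42.9 and 3.73 FPKM in the wildtype, 45.4, 38.4 and 29.2 in the heterozygous and 20.2, 83.2 and 15.04 in the knockout libraries, also highest in knockout 2 and lowest in wildtype 3. Without a stated use of strand, reads of the shared bases cannot be assigned to either gene. Limma called no difference in Cox6a2, and the fitted difference between knockout and wildtype was 0.088 (SE 0.76, 95% interval -1.63 to 1.81). Without wildtype 3 it was -0.51 (SE 0.73).

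**Figure D2:**
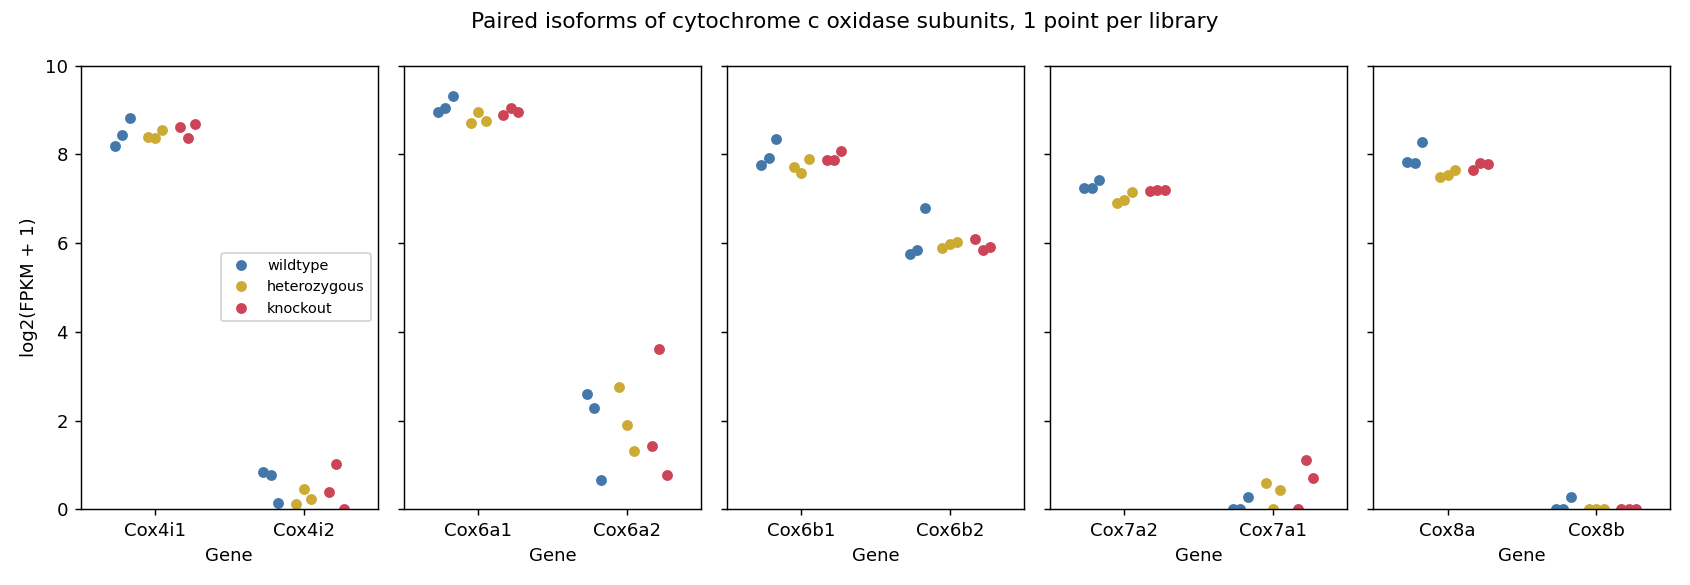
Level of paired isoform genes of cytochrome c oxidase subunits as log2(FPKM + 1), 1 point per library, coloured by genotype. Cox6b2 lies near 6 in 8 libraries and higher in wildtype 3, Cox6a2 varies widely, and Cox4i2, Cox7a1 and Cox8b lie near 0.

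Atp5g1, Atp5g2 and Atp5g3 encode the same mature c subunit of the ATP synthase rotor, and all 3 were present. Their summed level was 216 to 335 FPKM per library, highest in wildtype 3. Atp5g3 made up 50.3% to 62.0% of it, Atp5g1 28.9% to 37.2% and Atp5g2 9.13% to 15.9%. Atp5g3 was at 118, 132 and 174 FPKM in the wildtype, 136, 131 and 147 in the heterozygous and 138, 119 and 158 in the knockout libraries. Atp5g2 was highest in heterozygous 2 at 40.5 FPKM and lowest in knockout 3 at 23.3 FPKM, and it has 2 near-identical copies in the genome. The genotypes overlapped for all 3 genes.

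Across libraries, the clearest pattern was the height of wildtype 3. It held the highest value of 64 of the 77 tested members (83.1%), against 31.1% of all 9543 genes. By complex this was so for 31 of 35 genes in complex I, 4 of 4 in II, 8 of 9 in III, 11 of 14 in IV and 10 of 15 in V. The median member lay 0.41 above its mean over the 9 libraries on the log2(FPKM + 1) scale in wildtype 3, while the median of all genes lay 0.059 above. In 37 members (48.1%), wildtype 3 exceeded the next library by more than 1.2-fold, as it did in 9.75% of all genes. Ndufa10, an accessory subunit of complex I, shows it: the gene had 41.4, 48.4 and 87.2 FPKM in the wildtype, 53.4, 44.8 and 50.5 in the heterozygous and 54.3, 53.2 and 56.1 in the knockout libraries. Sdhd had 32.7, 35.9 and 58.5 FPKM in the wildtype, 30.2, 29.98 and 38.3 in the heterozygous and 37.7, 36.8 and 37.1 in the knockout libraries. The other 8 libraries ranged over 41.4 to 56.1 FPKM for Ndufa10 and over 29.98 to 38.3 FPKM for Sdhd. In both genes the genotypes overlapped, though knockout and wildtype only through wildtype 3. Without it, the fitted difference between knockout and wildtype went from -0.036 to 0.28 (SE 0.12) for Ndufa10. For Sdhd it went from -0.14 to 0.12 (SE 0.14).

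The members made up 2.72% of all FPKM in wildtype 3 and 2.01% to 2.25% in the other 8 libraries. The height was not shared by all members: 13 were highest in another library, among them Cox7b, Uqcrh, Atp5l and Ndufa1. Members with an NRF1 match lay a median 0.39 above their means there (n = 17) and members without one 0.43 (n = 46). The low markers of B cells, T and NK cells and macrophages in wildtype 3 moved with this height, and their part in it was not tested. In bulk samples, a smaller share of cells of a type cannot be told apart from less RNA per cell. The lowest library was more evenly spread, with heterozygous 2 lowest for 28 members, heterozygous 1 for 19 and wildtype 1 for 15.

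**Figure D3:**
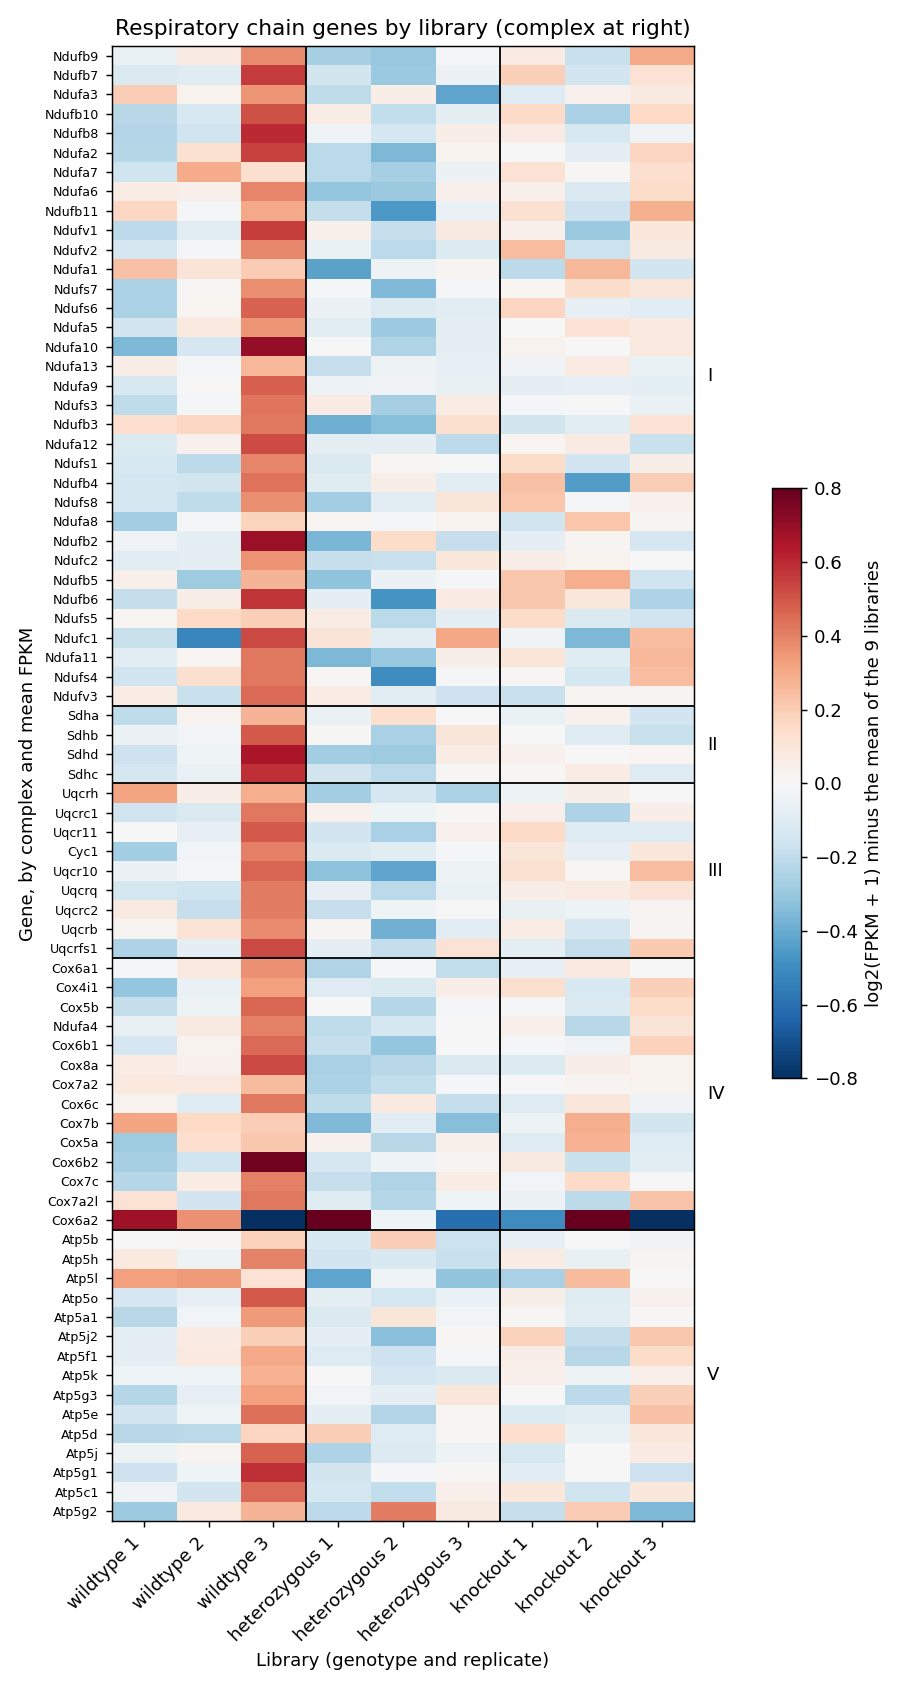
Deviation of 76 of the 77 tested members from their means over the 9 libraries on the log2(FPKM + 1) scale, members in rows by complex and mean level, libraries in columns. Colours end at -0.8 and 0.8, which Cox6a2 passes, and the column of wildtype 3 is red for most members of every complex.

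**Figure D4:**
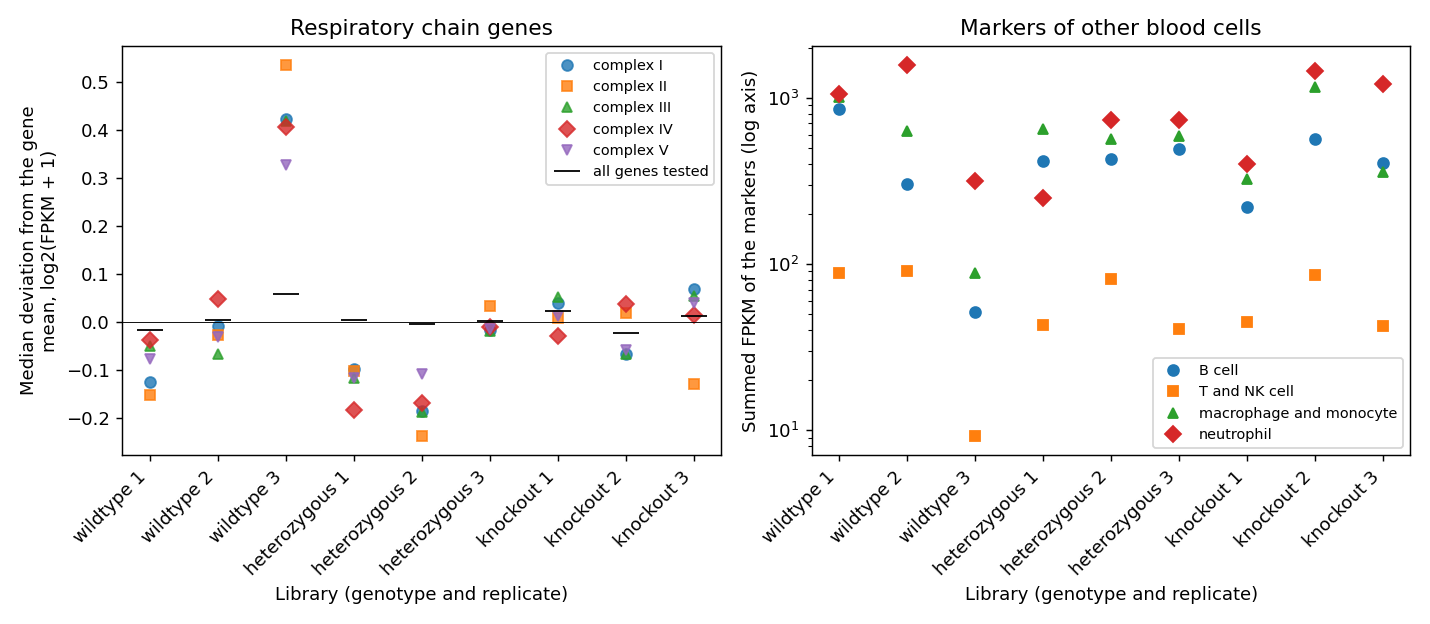
Left, the median deviation of the tested members of each complex from their gene means per library, with all 9543 genes as a dash. Right, the summed FPKM of markers of other blood cells per library on a log axis, lowest in wildtype 3 for B cells (51.7), T and NK cells (9.18) and macrophages (87.8).

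Depth moved with a few members. The 4 shallower libraries all lay below the 5 deeper ones in 8 members (10.4%), against 6.86% of all genes: Cox5b, Atp5g3, Uqcrc1, Atp5d, Ndufb10, Ndufb8, Ndufv1 and Ndufc1. No member showed the opposite, against 5.66% of all genes. The same 4 libraries had a globin share of 4.14% to 5.06% of all FPKM, against 2.52% to 2.86% in the deeper ones, and the part of either in these members was not tested. Of the wildtype libraries 2 were shallower, and 1 each of the heterozygous and knockout libraries.

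Heterozygous and wildtype erythroblasts were compared first, to ask whether the loss of 1 Dhh allele moved these genes, with the 3 knockout libraries adding to the estimate of the spread. Limma called none of the 77 members at an adjusted p below 0.05, and 0.0% of all 9543 genes, with a lowest adjusted p among members of 0.9999. At an unadjusted p below 0.05, limma found 10 members (13%) and 1.18% of all genes. All 10 had lower fitted values in heterozygous libraries, as 1.03% of all genes did at that p: Uqcrh, Cox7b, Atp5l, Cox8a, Ndufb3, Cox7a2, Ndufa3, Ndufa6, Ndufb11 and Uqcr10. Without wildtype 3 the count was 3 (3.9%, against 3.07% of all genes), and without wildtype 1 it was 18 (23.4%, against 3.71%). Without heterozygous 1 it was 4 (5.19%, against 0.65%) and without heterozygous 2 it was 5 (6.49%, against 1.34%). The 3 that remained without wildtype 3 were Uqcrh, Cox7b and Atp5l.

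Uqcrh (ENSMUSG00000063882, chr4:116066965-116075071 in GRCm38), the complex III hinge protein, had the lowest p of all members. It was at 342, 285 and 337 FPKM in the wildtype, 227, 251 and 231 in the heterozygous and 268, 284 and 275 in the knockout libraries, from 998 to 2462 reads per library. All heterozygous libraries lay below all knockout libraries, and these below all wildtype libraries. The means were 322 ± 31.6 FPKM in wildtype, 236 ± 12.5 in heterozygous and 276 ± 8.43 in knockout (SD, n = 3 each). The limma difference between heterozygous and wildtype was -0.44 (SE 0.11, 95% interval -0.69 to -0.19) on the log2(FPKM + 1) scale, with an unadjusted p of 0.00343 and an adjusted p of 0.9999. Its unadjusted p was below 0.05 in all 17 alternatives run, and its adjusted p passed in none.

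Cox7b (chrX:106015700-106022450), a small membrane subunit of cytochrome c oxidase, had 122, 109 and 112 FPKM in the wildtype, 76.3, 91.6 and 76.9 in the heterozygous and 95.05, 119.6 and 88.1 in the knockout libraries. All wildtype libraries were above all heterozygous ones, and the knockout libraries overlapped both. Its limma difference between heterozygous and wildtype was -0.48 (SE 0.14, 95% interval -0.80 to -0.17), unadjusted p 0.00717 and adjusted p 0.9999. Atp5l (chr9:44912557-44920742), subunit g of the ATP synthase membrane part, had 349, 352 and 301 FPKM in the wildtype, 207, 273 and 223 in the heterozygous and 232, 332 and 277 in the knockout libraries. Again all wildtype libraries exceeded all heterozygous ones, and here wildtype 3 was the lowest of the wildtype libraries. The limma difference was -0.52 (SE 0.16, 95% interval -0.88 to -0.15), unadjusted p 0.0114 and adjusted p 0.9999, the widest fitted difference of any member in this comparison. Because of its 9 near-identical copies, the level of Atp5l is uncertain.

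For other members with a low unadjusted p, the fitted difference narrowed without wildtype 3. Cox8a, another small subunit of complex IV, had 225, 221 and 312 FPKM in the wildtype, 180.1, 185 and 199 in the heterozygous and 200.1, 224 and 220.2 in the knockout libraries. Its 3 heterozygous libraries were below the 6 others, and wildtype 3 was far above the rest. The fitted difference of -0.41 became -0.25 (SE 0.11) without wildtype 3. Ndufb3, a membrane arm subunit of complex I, had 50.2, 51.4 and 61.6 FPKM in the wildtype, 34.7, 35.8 and 50.1 in the heterozygous and 41.2, 42.96 and 49.4 in the knockout libraries, with heterozygous 3 close under the lowest wildtype library. Its difference of -0.44 became -0.35 (SE 0.17) without wildtype 3. Cox7a2, the widely expressed form of subunit 7a, differed by -0.29 with all libraries and by -0.23 (SE 0.11) without wildtype 3.

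Wildtype and heterozygous libraries did not overlap in 12 members (15.6%), all lower in heterozygous, against 3.07% of all genes. Besides Uqcrh, Cox7b, Atp5l, Cox8a, Ndufb3 and Cox7a2 these were Atp5h, Ndufa1, Ndufa13, Ndufa6, Ndufb11 and Uqcrb. No member was higher in heterozygous libraries without overlap, against 1.29% of all genes. Ndufa13 overlaps exons of Tssk6 on the other strand over 29.98% of its bases, and Tssk6 was at a mean of 0.924 FPKM.

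By sign, the fitted difference was lower in heterozygous than in wildtype libraries for 72 of 77 members (93.5%), against 50.6% of all genes, and the median difference was -0.19 against -0.0020. Most members are abundant, and among the 4642 genes with a mean of at least 10 FPKM, 63.9% were lower and the median was -0.045. The 76 members among these gave 94.7% and -0.19. When each library was scaled to the same FPKM sum, the median of all genes moved to 0.12, 55 of 77 members (71.4%) were lower against 19.7% of all genes, and the members' median was -0.051. Without wildtype 3 the count was 49 of 77 (63.6%, against 51.1% of all genes) with a median of -0.039 against -0.0063, and without wildtype 1 the median was -0.30 against -0.038. With all libraries, the counts by complex were 33 of 35 in I, 4 of 4 in II, 9 of 9 in III, 13 of 14 in IV and 13 of 15 in V. The 5 members then on the other side were Atp5d, Atp5g2, Cox6a2, Ndufa8 and Ndufc1. Without wildtype 3 the counts were 22 of 35 in I, 3 of 4 in II, 5 of 9 in III, 10 of 14 in IV and 9 of 15 in V.

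The loss of both alleles was examined in knockout against wildtype libraries. Limma called none of the 77 members and 0.0% of all genes, the lowest adjusted p of a member was 0.9997, and no member had an unadjusted p below 0.05, against 0.451% of all genes in either direction and 0.251% lower in knockout. Without knockout 2 the count was 3 (3.9%), namely Atp5l, Cox7b and Ndufa1, against 2.64% of all genes. When wildtype 3 and knockout 2 were both left out it was 12 (15.6%), below the 22% of all genes. Groups did not overlap in 4 members (5.19%), all lower in knockout, against 1.4% of all genes, and in 0 members with higher knockout values, against 1.08%.

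These 4 were Uqcrh, Ndufb3, Cox7a2 and Atp5b. Uqcrh had a limma difference between knockout and wildtype of -0.22 (SE 0.11, 95% interval -0.47 to 0.037), with an unadjusted p of 0.0853 and an adjusted p of 0.9997. Ndufb3 had the widest fitted difference, -0.28 (SE 0.16, 95% interval -0.65 to 0.088), and Cox7a2 had -0.12, or -0.059 (SE 0.11) without wildtype 3. Atp5b averaged 618 ± 45.5 FPKM in wildtype and 578 ± 12.6 FPKM in knockout (SD, n = 3 each), a difference of -0.096, or -0.036 (SE 0.14) without wildtype 3, with the heterozygous libraries spread around both. At the other end Atp5d, the delta subunit of the ATP synthase, had a fitted difference of 0.14, or 0.27 (SE 0.13) without wildtype 3. For Cox4i1 it was 0.080, or 0.25 (SE 0.14) without wildtype 3, and -0.068 at the lowest alternative.

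The fitted difference was lower in knockout for 65 of 77 members (84.4%), against 47.3% of all genes, with a median of -0.096 against 0.0088. Without wildtype 3 this turned: 53 of 77 members (68.8%) were higher in knockout, against 53.1% of all genes, 24 were lower and the median was 0.082, against 0.015 for all genes. By complex, 26 of 35 were then higher in I, 3 of 4 in II, 7 of 9 in III, 8 of 14 in IV and 9 of 15 in V, and the medians of IV (0.015) and V (0.045) lay closest to that of all genes. Without wildtype 1 the median was -0.18, without wildtype 2 it was -0.15 and without knockout 2 it was -0.059. Scaling to the same FPKM sum left 50 of 77 lower (64.9%), against 30.2% of all genes. With a filter at a mean of 10 FPKM, 85.5% of 76 members were lower, against 51.5% of 4642 genes. The direction of the members as a group rested on wildtype 3. A lower fitted value in knockout was found under all 17 alternatives for 17 of 77 members, among them Uqcrh, Cox7b and Atp5l. The alternatives reuse the same libraries, and the share of all genes that kept their sign was not counted. The count therefore does not set the members apart from other genes. The size was not always kept: the difference of Cox8a went from -0.22 to -0.057 (SE 0.11) without wildtype 3.

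**Figure D5:**
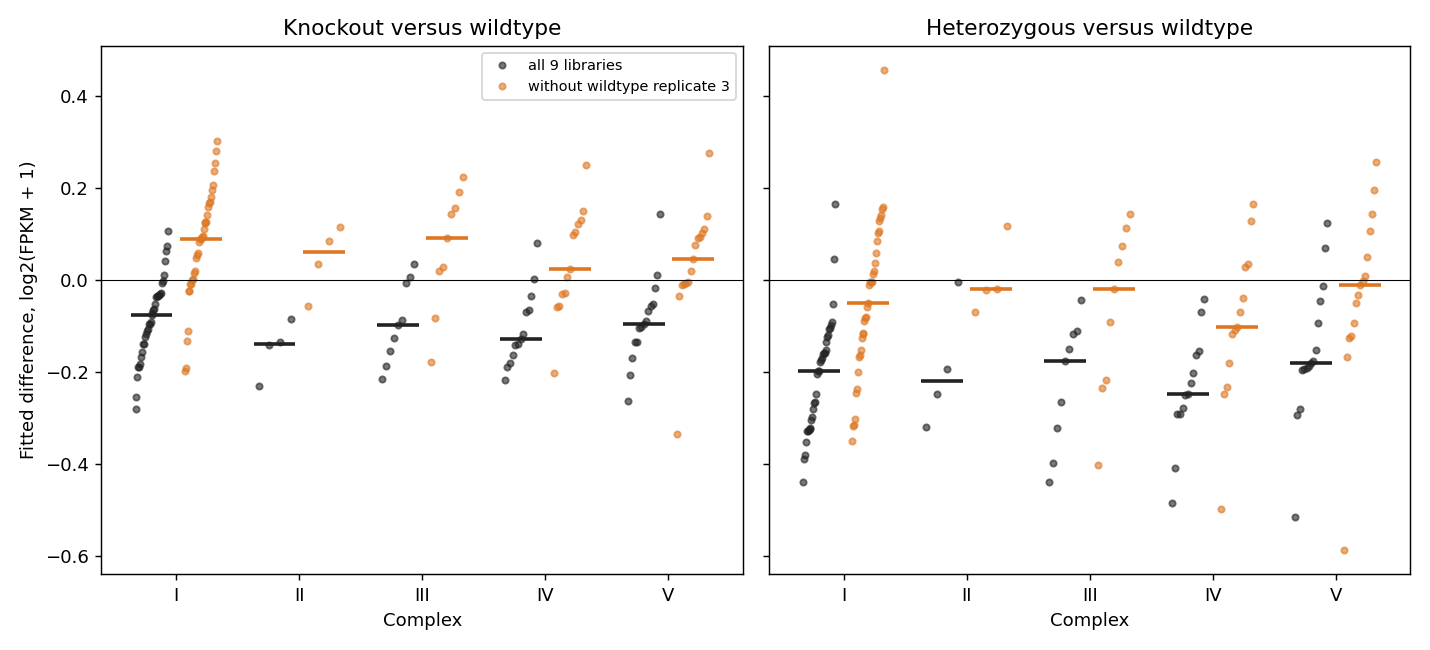
Fitted differences on the log2(FPKM + 1) scale for 76 tested members by complex (Cox6a2 is left out), with all 9 libraries (black) and without wildtype 3 (orange), medians as bars. Against wildtype, knockout medians lie below 0 with all libraries and above 0 without wildtype 3, and heterozygous medians move towards 0.

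Knockout and heterozygous libraries were compared last. This comparison does not use the wildtype means, but it shares its libraries with the other 2, so the 3 sets of values are given side by side and not as separate evidence. Limma called none of the 77 members and 0.0% of all genes, with a lowest adjusted p of 0.9996 for a member. At an unadjusted p below 0.05 there was 1 member (1.3%), Uqcr10, against 0.587% of all genes. With the replicate number as a block there were 3 (3.9%), against 0.692% of all genes. Without the block, no member was left when heterozygous 1 or knockout 1 was omitted (0.451% of all genes each), and without knockout 2 there were 4 (5.19%), near the 5.23% of all genes.

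Uqcr10 (chr11:4701973-4704342), a small subunit of complex III, had 84.9, 87.5 and 122 FPKM in the wildtype, 69.8, 65.3 and 85.6 in the heterozygous and 95.8, 88.8 and 105 in the knockout libraries. All 3 knockout libraries were above all heterozygous ones, and the wildtype libraries overlapped both. The limma difference between knockout and heterozygous was 0.39 (SE 0.17, 95% interval 0.014 to 0.77), with an unadjusted p of 0.0435 and an adjusted p of 0.9996. Its differences from wildtype were -0.0075 for knockout and -0.40 for heterozygous libraries, and 0.16 and -0.24 (SE 0.14 each) without wildtype 3.

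Groups did not overlap in 9 members higher in knockout (11.7%), against 2.61% of all genes, and in 1 member lower in knockout, Ndufa9, against 1.88%. The 9 were Atp5h, Cox7a2, Cox8a, Ndufa5, Ndufa7, Ndufs7, Uqcr10, Uqcrh and Uqcrq. Ndufa7, an accessory subunit of complex I, had 89.9, 123 and 110.2 FPKM in the wildtype, 86.2, 83.3 and 96.9 in the heterozygous and 109, 101 and 110.0 in the knockout libraries, and the limma difference was 0.26 (SE 0.14, 95% interval -0.041 to 0.57). The Ndufa9 difference was narrow, with 45.2 ± 0.543 FPKM in heterozygous and 44.3 ± 0.187 FPKM in knockout (SD, n = 3 each).

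Fitted values were higher in knockout than in heterozygous libraries for 64 of 77 members (83.1%), against 51.1% of all genes, with a median of 0.11 against 0.0037. Among the 4642 genes with a mean of at least 10 FPKM, 63.2% were higher and the median was 0.038. The 76 members among these gave 84.2% and 0.11. After scaling to the same FPKM sum the count was 51 (66.2%, against 31.0% of all genes), with a median of 0.031 against -0.066. After quantile normalization it was 48 (62.3%, against 48.5% of all genes), with a median of 0.035 against -0.0049. By complex, without such scaling, the count was 32 of 35 in I, 2 of 4 in II, 8 of 9 in III, 12 of 14 in IV and 10 of 15 in V. In complex II, Sdha and Sdhb were lower and Sdhc and Sdhd higher. The 3 c subunit genes Atp5g1, Atp5g2 and Atp5g3 and the catalytic genes Atp5a1 and Atp5b were among the 13 that were lower in knockout.

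The precision of these comparisons can be read from the intervals. The 95% interval of the fitted difference reached a median of 0.38 to either side over the members, against 0.42 over all genes, and lay within a 2-fold change in either direction for 76 of the 77 members in each comparison, all but Cox6a2. Differences smaller than the reach of their own interval could not be told from 0 with 3 libraries a genotype. No difference of a member passed the adjusted threshold, and a p above it does not show equal levels.

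Genes that assemble, feed or regulate the chain were taken from lists of known roles, and limma called none of their genes in any comparison. For reference, 47.3% of all 9543 genes were lower in knockout than in wildtype (46.9% without wildtype 3), and 31.1% peaked in wildtype 3. Of 15 tested complex I assembly factors, 8 had a lower fitted value in knockout than in wildtype (7 without wildtype 3) and wildtype 3 was the highest library for 5. Ndufaf3, the most abundant with Foxred1, ranged from 10.7 to 20.9 FPKM, and Foxred1 from 6.83 to 9.90 FPKM. Of 28 tested assembly factors of the other complexes, 10 were lower in knockout (8 without wildtype 3) and 12 peaked in wildtype 3. They were led by the copper chaperone Cox17 (109.7 to 149.7 FPKM) and by Cox20 (83.1 to 134 FPKM). Pet100, of the same list, had a limma difference of -0.41 between heterozygous and wildtype (unadjusted p 0.025, adjusted p 0.9999). Without wildtype 3 it was -0.35 (SE 0.17). Between knockout and heterozygous it was 0.44 (unadjusted limma p 0.020, adjusted p 0.9996). Pet100 was chosen after its values were seen.

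Among 13 tested mobile carriers and partners, 10 were lower in knockout (7 without wildtype 3) and 7 peaked in wildtype 3. Atpif1, the inhibitor of ATP synthase known for a role in heme synthesis of erythroblasts, ranged from 959 to 1323 FPKM, above every member by mean, and the ADP/ATP carrier Slc25a5 from 137 to 204 FPKM. Higd1a, a small inner membrane protein, had the only unadjusted p below 0.05 of these lists between knockout and wildtype, with a limma difference of -0.38, p 0.024 and adjusted p 0.9997, and it was chosen after its values were seen. Without wildtype 3 its difference was -0.27 (SE 0.14), with an unadjusted limma p of 0.078. Between heterozygous and wildtype its limma difference was -0.35 (unadjusted p 0.032, adjusted p 0.9999), or -0.25 (SE 0.14) without wildtype 3. Of 12 tested coenzyme Q genes, led by Coq9 (22.9 to 36.4 FPKM) and Coq10b (13.9 to 19.9 FPKM), 8 were lower in knockout (7 without wildtype 3) and 6 peaked in wildtype 3.

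Of 9 tested regulators of the chain, 4 had lower fitted values in knockout (3 without wildtype 3) and 3 peaked in wildtype 3, where their median lay -0.011 from the gene means. Yy1 ranged from 31.01 to 50.03 FPKM and Nrf1 from 27.8 to 40.3 FPKM, while the coactivators Ppargc1a and Ppargc1b were below the filter. Genes that copy and transcribe mitochondrial DNA, led by Polg (11.2 to 17.1 FPKM) and Tfb1m (7.93 to 15.2 FPKM), peaked in wildtype 3 for 2 of 12. Of these genes 5 were lower in knockout with that library and 5 without it, but they were not the same 5. The difference of Polg went from -0.10 to 0.028 and that of Tfb1m from -0.013 to 0.23 without wildtype 3, while other genes of the list turned lower. Citric acid cycle and pyruvate dehydrogenase genes, led by Mdh2 (161 to 219 FPKM) and Mpc2 (109 to 179 FPKM), peaked in wildtype 3 for 14 of 20 and were lower in knockout for 15, but for 3 without that library. Whether these lists differ from the members was not tested.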

How the data were processed

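RNA was measured in 9 libraries, 3 per genotype. Per the submitters' processing notes, TopHat, Picard, DESeq2 and mm10 were used; versions, roles, annotation and strand were not given in the sources used here. The authors deposited FPKM values, 1 column per library. They proved to be whole reads divided by a gene constant and a median-of-ratios size factor: within 0.05 of a read, all 14147 genes above 0 in at least 2 libraries came out whole (100%), so reads per library could be recovered. The limma intervals reflect the spread between libraries, while the floors of values listed as 0 cover counting error only. Positions come from GENCODE M21 (GRCm38), which matched 83 of 83 members.

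Limma 3.58.1 in R 4.3.3 was fitted to log2(FPKM + 1), which understates changes of low genes, for the 9543 genes that reached 1 FPKM in 3 or more libraries: a mean per genotype, eBayes with a trend, 2-sided, Benjamini-Hochberg over all genes in each of 3 comparisons. The procedure was tested on simulated data. With 3 libraries a group, 0.1 is the smallest p of an exact permutation test, so none was used. Alternatives covered the pseudocount, filter, scaling, variance model, replicate block, depth, voom on recovered reads and left-out libraries. Same-numbered libraries deviated together between knockout and heterozygous (correlations 0.197, 0.183 and 0.407, each over 0.1), which meets the criterion for pairs by number, so the count with the replicate block is given beside that comparison, whose values come from the fit without it. The numbers come from the labels, which state no shared litter or day. Heterozygous 2 (7.05 M reads) and knockout 2 (8.58 M) were also the shallower libraries of their genotypes, and the part of depth in these correlations was not tested. Correlations were -0.568, 0.508 and 0.326 for knockout with wildtype and 0.128, 0.181 and 0.001 for heterozygous with wildtype, which were not taken as pairs.

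Named members were the 4 most abundant of each complex, the 5 of lowest p in each comparison, the 5 of largest spread, the tissue isoforms, the c subunit genes and members below the filter, plus the 2 most abundant genes of each related list. Other genes named (further core subunits of complex I, genes without overlap, with unadjusted p below 0.05 or on the minority side of a sign count, Atp5d, Higd1a and Pet100) were picked with their values known. One member enters all counts but is not reported by name here. The members and lists were chosen with earlier results of these data known.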

Additional observations from a re-analysis of the deposited data

How the results depend on the processing

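For each comparison 17 alternatives were run, of which 16 were planned and the joint omission of wildtype 3 and knockout 2 was added after seeing the data, as was the count of signs. Limma called 0 genes and 0 members in all of them, and the lowest adjusted p of a member was 0.127 for knockout against wildtype, 0.650 for heterozygous against wildtype and 0.225 for knockout against heterozygous. Leaving out each library in turn moved the members' median from -0.18 to 0.082 and the count of lower members from 24 to 74 for knockout against wildtype. Without wildtype 3 and knockout 2 together these were 0.074 and 25. The corresponding ranges were -0.30 to -0.039 and 49 to 74 for heterozygous against wildtype, and 0.076 to 0.14 and 60 to 67 higher members for knockout against heterozygous. With the replicate block, limma called 0 genes and changed no call. At an unadjusted p below 0.05 it then gave 1, 16 and 3 members in these 3 comparisons (1.3%, 20.8% and 3.9%, against 0.587%, 1.69% and 0.692% of all genes), where it gave 0, 10 and 1 without the block. With a depth term it gave 1, 18 and 4 (1.3%, 23.4% and 5.19%, against 0.807%, 2.6% and 1.11%). Scaling lowered the count for heterozygous against wildtype. With the same FPKM sum limma gave 0, 3 and 0 (0%, 3.9% and 0%, against 0.472%, 1.14% and 0.513%). With quantile normalization it gave 0, 6 and 1 (0%, 7.79% and 1.3%, against 0.472%, 0.933% and 0.639%). Of 111 results for named members, 55 changed sign in at least 1 alternative, and none changed its call. Depth limits the isoforms below the filter, which rest on 0 to 7 reads.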
